A study of Mus musculus with 2 samples.

Results

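The Hippo pathway genes described here are 10 genes taken as a fixed list, the coactivators Yap1 and Wwtr1, their DNA-binding partner Tead1, the kinases Lats1 and Lats2, the angiomotin-like genes Amotl1 and Amotl2, and the target genes Ccn1, Ccn2 and Ankrd1. They are 10 of the 54438 mouse genes to which the deposited transcript tables could be summed, and 9 of the 10 had reads in at least 1 library. The rule is a list of names and uses no measured value, but the members and the lists below were chosen with earlier results of these data known. The series holds 2 RNA libraries, titled W1 and W2. By the labels, both are basal cells of the mammary gland, isolated with flow cytometry out of wild type C57BL/6 mice aged 8 weeks and processed by Smart-seq, a full-length cDNA method for small inputs. Basal cells form the outer layer of the mammary epithelium and include the contractile myoepithelial cells. The series is about basal cells with and without Pd-l1, the ligand of the inhibitory receptor Pd-1, but the labels of the libraries differ only in the title, so neither library could be placed in a Pd-l1 class. The sources used here do not give the number of mice, the number of cells or the sorting gates. The values of W1 and W2 therefore stand side by side, each from a single library, with no replicate, no test and no p-value.

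The Hippo pathway is a kinase cascade that limits organ growth and reads cell contact, cell shape and mechanical tension. Its kinases Stk3 and Stk4, with the scaffold Sav1, activate Lats1 and Lats2, which with their Mob1 partners phosphorylate the coactivators Yap1 and Wwtr1 (the gene of TAZ) and hold them in the cytoplasm. Unphosphorylated coactivators enter the nucleus and bind the TEAD factors, which activate genes such as Ccn1, Ccn2 and Ankrd1. Much of this control acts on proteins, through phosphorylation and location, and messenger RNA levels do not measure it. In the mammary gland, TAZ has been linked to the basal lineage, and in endothelial cells YAP and TAZ take part in vessel growth.

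The depth was 3055839 counted reads for W1 and 3800029 for W2, worked out from the steps in the deposited values. Values are given in TPM, a level corrected for transcript length that sums to 1000000 in each library. The cell type markers of the libraries differed. Those of W1 went against its label, and W2 had both basal and luminal markers. The summed level of 8 basal markers was 6.62 TPM in W1 and 33369 TPM in W2, and 4 of the 8 (Krt5, Myh11, Cnn1 and Trp63) had 0 reads in W1, of which Trp63 had 0 reads in W2 as well. The summed level of 9 endothelial markers was 4670 TPM in W1 and 4.78 TPM in W2, where 8 of the 9 had 0 reads. Most of the basal sum in W2 was Acta2 at 18192 TPM and Krt17 at 12795 TPM, with Krt5 at 585 TPM. For 7 luminal markers the sum was 7.35 TPM in W1 and 4211 TPM in W2, and for 6 fibroblast markers 3.19 TPM in W1 and 119 TPM in W2. In W2 the luminal Krt8 at 1691 TPM, Epcam at 1511 TPM and Krt18 at 995 TPM stood above Krt5. The luminal Krt19, Esr1, Elf5 and Prlr stood below it. For 5 leukocyte markers it was 79.8 TPM in W1 and 0 in W2, for 4 pericyte markers 59.3 TPM in W1 and 51.3 TPM in W2, and for 3 adipocyte markers 7.68 TPM in W1 and 0 in W2. Nearly all of the pericyte sum was Rgs5, and all of the adipocyte sum was Fabp4, which endothelial cells also express. The part of these markers in any difference below was not tested. In RNA from bulk cells, fewer cells of a type and less RNA per cell cannot be told apart.

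Transcripts with reads all had sequence that they do not share. The genes have 64 listed transcripts, and 13 of these had reads. For each, the 50-base stretches found in no other listed transcript were counted and are called its own sequence here. Each of the 13 transcripts with reads had at least 114 such stretches, while none of the 36 transcripts with under 100 had a read. Of the 28 transcripts with 100 or more, 15 had 0 reads, among them Amotl2-206 with 1032 and the coding Lats2-207 with 768. Over all listed transcripts, 36.39% of those with more than 500 own stretches had reads, against 0.44% of those with none in genes with several transcripts. How reads shared by isoforms were counted is not stated in these sources and was not tested, so 0 reads on a transcript with little own sequence do not show it silent. Ccn1 and Ankrd1 have 1 listed transcript each, whose 50-base stretches are all its own.

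**Figure D1:**
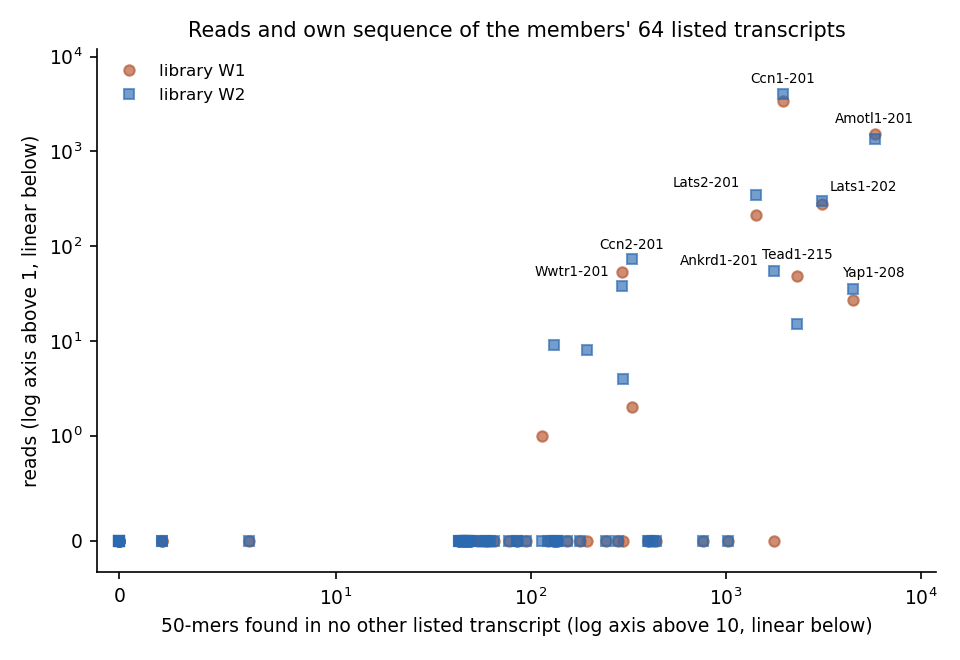
Reads of each of the 64 listed transcripts in W1 (circles) and W2 (squares) against the number of 50-base stretches found in no other listed transcript, with both axes logarithmic except near 0. Points above 0 reads begin at 114 own stretches, and Ccn1-201 and Amotl1-201 have the most reads.

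In TPM, the coactivator genes were read at low and similar levels in the libraries, with limits of own sequence given below. Yap1 (ENSMUSG00000053110.13, chromosome 9, 7931999 to 8004596, minus strand, GRCm38) had 27 reads, or 1.69 TPM, in W1 and 35 reads, or 2.17 TPM, in W2. The log2 ratio of TPM + 1, W1 over W2, was -0.24, and 0.03 with the abundant transcript Gm23935 left out of the total. The level in W1 was 1.29-fold lower, with an exact 95% interval on the reads of 0.757 to 2.21, so the direction was not resolved at this depth. Intervals cover counting error only. The protocol names no molecular identifiers, so reads copied from the same molecule could not be told apart and the intervals may be too narrow. Wwtr1 (ENSMUSG00000027803.14, chromosome 3, 57455649 to 57575910, minus strand) had 54 reads, or 3.79 TPM, in W1 and 47 reads, or 3.30 TPM, in W2, a ratio of 1.15 (0.768 to 1.75). Its log2 ratio was 0.16, and -0.01 once mitochondrially encoded and ribosomal protein genes were taken out of the total, so neither coactivator gene has a direction that can be given.

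The Yap1 values rest on no coding transcript, and those of Wwtr1 on coding transcripts with little own sequence. All reads of Yap1 lay on Yap1-208, an annotated transcript that keeps an intron, and its 3 coding transcripts, with 0 to 54 own stretches, had 0 reads. Yap1-208 (chromosome 9, 7996908 to 8004596) has 2 exons, and 86.1% of its 5282 bases lie outside the exons of coding Yap1 transcripts. The protein-coding Wwtr1-201 and Wwtr1-202 of TAZ differ in a small stretch, with 295 and 131 own stretches. Wwtr1-201 had 54 reads in W1 and 38 in W2, and Wwtr1-202 had 0 reads in W1 and 9 in W2. Scaled to its own sequence, Wwtr1-201 had 59.9 reads per kilobase for each 1000000 reads in W1 (45.0 to 78.2) and 33.9 in W2 (24.0 to 46.5). On the same scale Yap1-208 had 1.96 in W1 and 2.05 in W2. Scaling to own sequence takes it that reads shared by isoforms were left out, which was not tested.

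Tead1, which encodes a DNA-binding partner of both coactivators, was the only one of the 10 genes at least 2-fold higher in W1 on the TPM + 1 scale, which 34.7% of all 12587 genes compared also were. The gene (ENSMUSG00000055320.17, chromosome 7, 112679318 to 112906807, plus strand) had 49 reads, or 5.69 TPM, in W1 and 15 reads, or 1.73 TPM, in W2. The log2 ratio was 1.29 and the level was 3.29-fold higher in W1 (1.81 to 6.31). With a pseudocount of 5 in place of 1, the log2 ratio was 0.67, under the 2-fold rule. Its reads also lay on a single transcript that keeps introns, Tead1-215 (chromosome 7, 112839634 to 112842474), of which 95.6% of 2841 bases lie outside exons of coding Tead1 transcripts. The 11 coding Tead1 transcripts, with 0 to 399 own stretches, had 0 reads, so the higher value in W1 is that of a transcript annotated with kept introns. The edges of these kept introns are printed to show the annotated transcripts that the reads were assigned to, with exon in lower case and intron in capitals. The deposited values do not place reads within a transcript. Each is 60 bases of the GRCm38 genome, read on the strand of the gene, and the exon part is coding. The first is from chr9:8001427-8001486 (minus), the second from chr7:112841858-112841917 (plus) and the third from chr7:112841921-112841980 (plus).
Yap1-208 exon into intron: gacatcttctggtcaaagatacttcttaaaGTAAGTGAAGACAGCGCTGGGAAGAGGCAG
Tead1-215 intron into exon: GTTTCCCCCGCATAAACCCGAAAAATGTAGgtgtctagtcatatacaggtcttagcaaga
Tead1-215 exon into intron: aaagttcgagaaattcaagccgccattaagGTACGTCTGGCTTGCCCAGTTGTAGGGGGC
The intron begins with GT on its 5' side and ends with AG on its 3' side in these stretches, the usual bases of a splice site. A spliced message would lack the capitals.

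**Figure D2:**
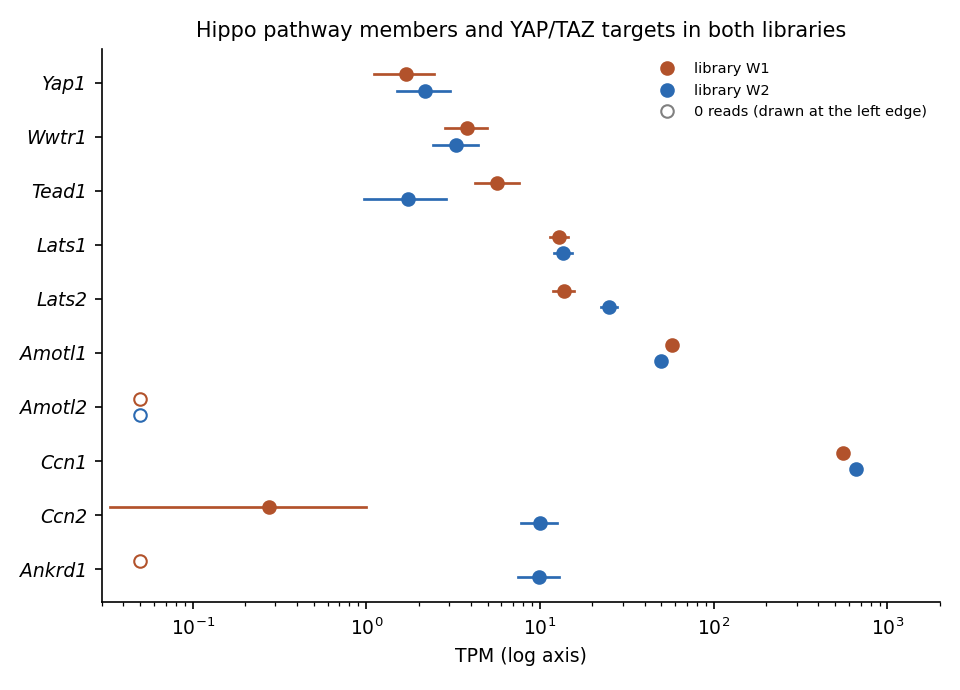
TPM of the 10 genes in W1 (red) and W2 (blue) on a log axis, with exact 95% intervals for counting error and open circles at the left edge for 0 reads. Ccn2 and Ankrd1 lie near 10 TPM in W2 and near or at 0 in W1, Tead1 lies at 5.69 TPM in W1 and 1.73 TPM in W2, and the other genes with reads lie within 2-fold. Among these, the intervals of Lats2, Ccn1 and Amotl1 do not meet.

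The LATS kinases, which inactivate YAP and TAZ, were read in both libraries. Lats1 (ENSMUSG00000040021.13, chromosome 10, 7681214 to 7716460, plus strand) had 281 reads, or 12.9 TPM, in W1 and 299 reads, or 13.6 TPM, in W2. These values differed 1.06-fold with an interval of 0.895 to 1.25, and the log2 ratio of -0.07 became 0.21 in FPKM and 0.31 without Gm23935, so no direction can be given. All Lats1 reads lay on the coding transcript Lats1-202, and 92.4% of its own sequence is 3' untranslated. Lats2 (ENSMUSG00000021959.16, chromosome 14, 57689662 to 57758388, minus strand) had 215 reads, or 13.7 TPM, in W1 and 359 reads, or 25.1 TPM, in W2. It was 1.83-fold lower in W1 (1.40 to 1.97), with a log2 ratio of -0.83 that stayed below 0 in all scalings tried and passed the 2-fold rule, at -1.04, only without mitochondrially encoded and ribosomal protein genes in the total. Lats2 encodes a kinase of the pathway and is also one of its reported target genes.

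The kinases can be set against each other within a library, which removes the scaling between libraries. W1 had 76.5 reads on Lats2-201 for each 100 on Lats1-202, and W2 had 116. The ratio in W1 was 0.659 of that in W2 (0.517 to 0.840). Per kilobase of own sequence, Lats2-201 stood at 1.65 times Lats1-202 in W1 and 2.51 times in W2. Small numbers of reads on 2 other Lats2 transcripts appeared in W2 alone, 8 on the coding Lats2-202 and 4 on Lats2-209, which is annotated for nonsense-mediated decay. Lats2 shares 2955 exon bases on the same strand with the coding gene Gm49361, which had 0 reads in both libraries, so its level is uncertain to that extent.

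The angiomotin-like genes encode scaffolds at cell junctions that bind YAP and TAZ and keep them out of the nucleus. Amotl1 (ENSMUSG00000013076.17, chromosome 9, 14541966 to 14645056, minus strand) had 1545 reads, or 57.6 TPM, in W1 and 1351 reads, or 49.4 TPM, in W2. The ratio was 1.16 (1.07 to 1.24), and the log2 ratio of 0.22 became 0.00 without mitochondrially encoded and ribosomal protein genes and 0.62 without Gm23935. Nearly all its reads, 1544 in W1 and 1351 in W2, lay on the coding Amotl1-201, and 95.3% of the own sequence of that transcript is 3' untranslated. Amotl2 (ENSMUSG00000032531.15, chromosome 9, 102716672 to 102733418, plus strand), which is also a reported YAP target, had 0 reads in both libraries. Its 9 coding transcripts have 0 to 153 own stretches, and Amotl2-206, a transcript that keeps an intron and has 1032, had 0 reads as well. Amotl2 was thus not detected at this depth. The pair Wwtr1-201 and Amotl1-201 kept a like proportion, with 3.50 Wwtr1-201 reads for each 100 Amotl1-201 reads in W1 and 2.81 in W2 (ratio 1.24, 0.800 to 1.95). Per kilobase of own sequence, Wwtr1-201 stood at 68.8% of Amotl1-201 in W1 and at 55.3% in W2, if shared reads were left out.

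The target genes separated from each other. Ccn1, which encodes the secreted matricellular protein CYR61, had the highest TPM of the 10 genes in both libraries. The gene (ENSMUSG00000028195.4, chromosome 3, 145646976 to 145649981, minus strand) had 3381 reads, or 553 TPM, in W1 and 4052 reads, or 658 TPM, in W2. It was 1.19-fold lower in W1 (1.14 to 1.25) as scaled to TPM, with a log2 ratio of -0.25 that turned to 0.05 in FPKM and in CPM, 0.06 after median-ratio scaling and 0.16 without Gm23935. The interval of counting error does not include this dependence on scaling, and no direction can be given for Ccn1. Per kilobase of own sequence for each 1000000 reads, Ccn1 had 562 reads in W1 (543 to 581) and 541 in W2 (525 to 558). On that scale Amotl1-201 had 87.1 in W1 (82.8 to 91.5) and 61.3 in W2 (58.1 to 64.6), and Lats2-201 had 48.9 in W1 (42.6 to 55.9) and 63.5 in W2 (57.0 to 70.5). Ccn1 is an immediate early gene, known to be induced by serum growth factors.

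Ccn2, which encodes the connective tissue growth factor CTGF, was lower in W1. The gene (ENSMUSG00000019997.11, chromosome 10, 24595442 to 24598683, plus strand) had 2 reads, or 0.275 TPM, in W1 and 73 reads, or 9.98 TPM, in W2. The log2 ratio was -3.11 and the level was 36.3-fold lower in W1 (9.68 to 305). All reads lay on Ccn2-201, in which only 14.1% of the 2349 stretches of 50 bases are its own, 78.2% of these in the 5' untranslated region and 21.8% in coding sequence. Measured against Ccn1 within each library, Ccn2-201 had 0.0592 reads for each 100 of Ccn1-201 in W1 and 1.80 in W2. By this ratio, which needs no scaling, Ccn2 was 30.5-fold lower in W1 (8.12 to 256). Per kilobase of own sequence, Ccn2-201 stood at 0.352% of Ccn1-201 in W1 and at 10.7% in W2, values that are too high if shared reads were counted. Ccn2 is known as a transcript of fibroblasts and endothelial cells as well as of epithelium, and the marker sums of fibroblasts and basal cells were higher in W2 and that of endothelial cells in W1. Their part in the Ccn2 values was not tested.

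The Ccn2 value has a further limit, the antisense gene Gm15270 (chromosome 10, 24549441 to 24597108, minus strand), which shares 665 exon bases with Ccn2. It had 39 reads, or 15.1 TPM, in W1 and 822 reads, or 312 TPM, in W2, more than Ccn2 in both. Its transcript Gm15270-201 held 38 of these reads in W1 and 815 in W2, and 541 of its 870 bases, or 62.2%, lie opposite exons of Ccn2-201. Its largest exon covers the whole first exon of Ccn2-201. Own sequence was counted on the sense strand, so own stretches of Ccn2-201 there are shared with Gm15270 if counting ignored strand. The folds given for Ccn2, also that against Ccn1, carry this limit. The library kit is stranded by the labels, but no source used here says whether counting used strand, so reads of the sense and antisense genes cannot be told apart. Added together, the pair had 41 reads, or 15.4 TPM, in W1 and 895 reads, or 322 TPM, in W2. The sum was 20.9-fold lower in W1 (15.9 to 30.4), with a log2 ratio of -4.30. Most reads of the pair are assigned to Gm15270, so the sum says little of Ccn2, whose own level is uncertain. Yap1 has an antisense neighbour as well, Gm20416, which shares 116 exon bases with it and stood at 4.09 TPM in W1 and 17.6 TPM in W2. Gm20416 (chromosome 9, 7965838 to 7977004) does not overlap Yap1-208, which held all Yap1 reads.

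**Figure D3:**
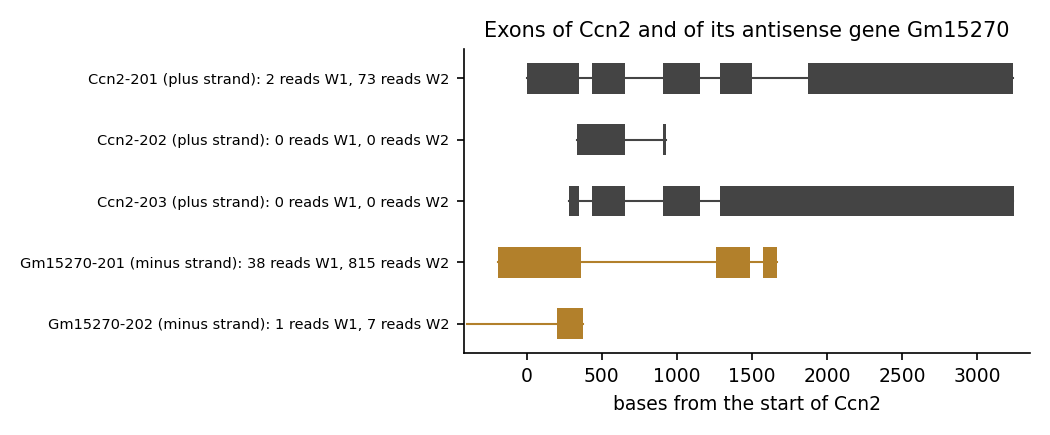
Exons of the 3 Ccn2 transcripts (dark) and of the 2 transcripts of the antisense gene Gm15270 that reach into it (brown), drawn to scale in bases from the start of Ccn2, with the reads of each in W1 and W2. The largest Gm15270-201 exon covers the first exon of Ccn2-201, and Gm15270-202 continues beyond the left edge.

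Ankrd1, which encodes a cardiac and muscle ankyrin repeat protein and is widely used as a YAP reporter gene, was read in W2 alone. The gene (ENSMUSG00000024803.9, chromosome 19, 36111961 to 36120099, minus strand) had 0 reads in W1 and 55 reads, or 9.84 TPM (7.42 to 12.8), in W2. With a floor of 3 reads, or 0.545 TPM, for W1, the level there was at least 18.2-fold lower, and the log2 ratio of TPM + 1 was -3.44. The recovered number in W2 was 54.59 before rounding, which is not whole, so the annotated length used here may differ from the length behind the deposited value. Ankrd1-201 has no shared sequence with another listed transcript, and per kilobase for each 1000000 reads it had 0 in W1, with an upper bound of 0.682, and 8.18 in W2 (6.16 to 10.6).

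TEAD factors bind the core motif GGAATG, which reads CATTCC on the other strand. Of the 10 genes, 8 matched the RefSeq promoter table (GRCm38.p6), and 5 of those 8 held the motif on either strand within 250 bases upstream of an annotated start. Over all genes in that table, 14.4% held it. Counted by promoter, the motif was in 6 of 10 promoters of these genes and in 12.6% of all 32851. Both Wwtr1 promoters overlap and hold the same motif site, which is counted for each. The matches are shown because they place the motif beside Ankrd1, which was past 2-fold, beside genes within 2-fold and beside Amotl2, which was not detected. The other genes past 2-fold, Ccn2 and Tead1, were not among the 8 genes with a promoter sequence. Their promoters were not examined, so the motif cannot be set against the calls. Each line gives the gene strand with the motif in capitals and 12 bases on each side. The positions are chr3:145650071-145650100 (Ccn1, minus), chr9:8004720-8004749 (Yap1, minus), chr3:57576029-57576058 (Wwtr1, minus), chr9:102717727-102717756 (Amotl2, plus) and, for Ankrd1 on the minus strand, chr19:36120037-36120066 and chr19:36119950-36119979.
Ccn1, 103 bases upstream: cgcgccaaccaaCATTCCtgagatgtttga
Yap1, 141 bases upstream: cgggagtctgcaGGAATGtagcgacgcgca
Wwtr1, 136 bases upstream: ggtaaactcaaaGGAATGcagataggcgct
Amotl2, 65 bases upstream: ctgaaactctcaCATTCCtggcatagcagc
Ankrd1, 210 bases upstream: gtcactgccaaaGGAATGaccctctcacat
Ankrd1, 123 bases upstream: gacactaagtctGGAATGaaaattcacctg
The windows of Lats1, Lats2 and Amotl1 did not hold these letters. A match is a stretch of letters in the reference genome and not a bound site. Ccn1, at a similar level in both libraries, and Ankrd1, read in W2 alone, both held the motif.

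Of the 10 genes, 9 reached 1 TPM in at least 1 library and were compared by the 2-fold rule. Tead1 was higher in W1, Ccn2 and Ankrd1 were lower, and the other 6 lay within 2-fold. The share past 2-fold in either direction was 33.3% of the 9, against 67.6% of all 12587 genes compared by the same rule. Over all genes, 34.7% were higher and 32.9% lower in W1. The median log2 ratio was -0.24 over the 9 genes and -0.07 over all genes. The scaling matters for the small differences, because a single transcript, the annotated miRNA gene Gm23935, took 27.7% of all TPM in W1. Across 5 other scalings the median of all genes moved by -0.20 to 0.36 on the log2 scale. Relative to the median of all genes in each scaling, Ccn2 lay at -3.02 to -3.79, Ankrd1 at -3.35 to -4.13, Lats2 at -0.59 to -0.77 and Tead1 at 1.28 to 1.61.

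**Figure D4:**
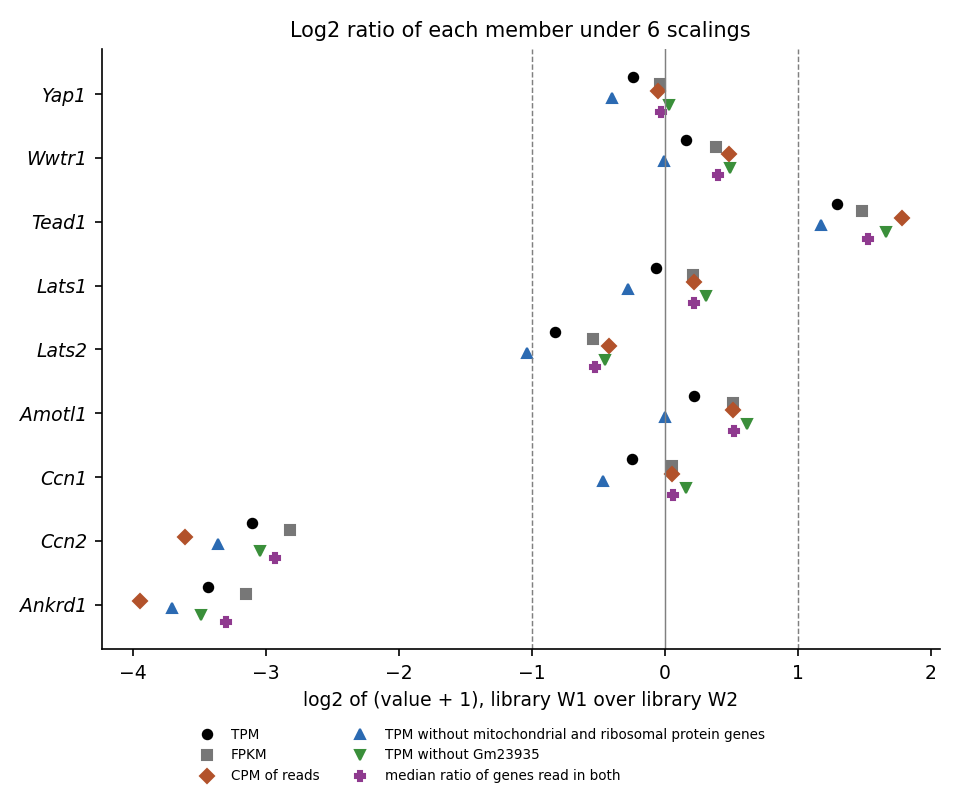
Log2 ratio of W1 over W2 for the 9 genes with reads under 6 scalings, one symbol each, with dashed lines at 2-fold. Ccn2, Ankrd1 and Tead1 keep their side in all 6, Lats2 crosses the 2-fold line in 1, and Yap1, Wwtr1, Lats1 and Ccn1 lie on both sides of 0 depending on the scaling, with Amotl1 at 0.00 in 1 of them.

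The rest of the pathway was divided between the libraries. A list of 33 upstream regulators and kinases, which includes Lats1, Lats2, Amotl1 and Amotl2, had 24 genes that could be compared. Of these, 5 were higher in W1, 5 were lower and 14 lay within 2-fold, with a median log2 ratio of 0.02. In FPKM, 3 genes of this list and the next together were past 2-fold lower in W1, against 6 in TPM. The cadherin gene Dchs1, a ligand of Fat4, stood at 21.1 TPM in W1 and 4.54 TPM in W2, 4.64-fold higher in W1 (3.88 to 5.57). Its receptor Fat4 stood at 7.95 TPM in W1 and 2.48 TPM in W2, but the coding transcript Fat4-201 alone gave 2.99 TPM in W1 and 2.48 TPM in W2, the rest of W1 being 45 reads on a transcript that keeps an intron. The scaffold gene Sav1 had 27 reads, or 3.69 TPM, in W1 and 0 reads in W2, at least 9.06-fold higher in W1. The kinase gene Map4k4 stood at 114 TPM in W1 and 13.0 TPM in W2, with all reads on transcripts that keep introns or have no annotated protein, of which Map4k4-207 gave 37.5 TPM in W1 and 13.0 TPM in W2.

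Those past 2-fold lower in W1 in TPM included 2 of the 3 listed genes of the Ajuba family, LIM proteins that restrain LATS kinases. Over all genes compared, 32.9% were lower in W1. In FPKM 3 pathway genes were past 2-fold lower, against 6 in TPM. Wtip, Frmd6 and Wwc1 were the genes under 2-fold in FPKM, so their calls depend on the scaling. The LIM gene Ajuba stood at 0.389 TPM in W1 and 3.28 TPM in W2, 8.43-fold lower in W1 (3.01 to 32.8), and its relative Wtip at 12.6 TPM in W1 and 31.1 TPM in W2, 2.46-fold lower (1.87 to 3.27). The third, Limd1, stood at 13.9 TPM in W1 and 24.5 TPM in W2 and lay within 2-fold. Frmd6, which encodes a FERM-domain protein upstream of the kinases, stood at 50.9 TPM in W1 and 115 TPM in W2, 2.26-fold lower (2.01 to 2.40). Btrc, which encodes a receptor subunit of the ubiquitin ligase that marks YAP for degradation, stood at 1.02 TPM in W1 and 5.04 TPM in W2. Wwc1 (0.0730 TPM in W1, 1.38 in W2), with under 20 reads in each library, was also lower in W1 and was named after its values were seen. Genes within 2-fold included Nf2, which encodes merlin (8.79 TPM in W1, 10.6 in W2), the kinase partner gene Mob1b (7.61 TPM in W1, 5.26 in W2), the phosphatase gene Ptpn14 (19.4 TPM in W1, 16.6 in W2) and Ywhaz, a 14-3-3 protein gene whose products hold phosphorylated YAP (173 TPM in W1, 226 in W2).

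Among the 10 coactivators and TEAD partners, 6 could be compared, of which 2 were higher in W1, 1 was lower and 3 lay within 2-fold. Tead4 had 55 reads, or 10.3 TPM, in W1 and 0 reads in W2, at least 18.5-fold higher in W1. Vgll3, which encodes a TEAD cofactor of the vestigial-like family, went the other way, with 0 reads in W1 and 283 reads, or 13.2 TPM, in W2, at least 93.7-fold lower in W1. Tead2 had 1 read in W1 and 0 in W2, and Tead3 had 0 in both. The TEAD genes have several listed transcripts each, and 0 reads do not show them silent. Of the 30 comparable genes of both lists together, 43.3% were past 2-fold, against 67.6% of all genes.

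More of the reported YAP and TAZ target genes were lower than higher in W1, in a list chosen with earlier results of these data known. Of 22 targets, known chiefly from human tumour cells and matched here by mouse symbol, 17 could be compared, with 3 higher in W1, 9 lower and 5 within 2-fold. Over all genes compared, 34.7% were higher and 32.9% lower in W1. In either direction 70.6% of the targets were past 2-fold, close to the 67.6% of all genes, and the median log2 ratio was -1.62 against -0.07 over all genes. Without Ccn1, Ccn2, Ankrd1, Lats2 and Amotl2, 13 targets could be compared, of which 3 were higher, 7 lower and 3 within 2-fold, with the same median of -1.62. Axl, which encodes a receptor tyrosine kinase, had 0 reads in W1 and 549 reads, or 42.2 TPM, in W2, at least 182-fold lower in W1. Gadd45a, a stress-response gene, stood at 7.83 TPM in W1 and 109 TPM in W2, 13.9-fold lower (9.32 to 20.6). F3, which encodes tissue factor, had 0 reads in W1 and 38 in W2, at least 12.6-fold lower in W1.

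Targets on the other side were fewer. Crim1, which encodes a transmembrane protein that binds growth factors, stood at 69.0 TPM in W1 and 21.7 TPM in W2, 3.19-fold higher in W1 (2.85 to 3.58). Foxf2, a forkhead factor gene, had 31 reads in W1 and 0 in W2, at least 10.4-fold higher in W1. Asap1 stood at 11.1 TPM in W1 and 1.86 TPM in W2, but its coding transcript Asap1-217 alone gave 4.07 TPM in W1 and 1.86 TPM in W2, the rest of W1 being 21 reads on a transcript that keeps an intron. Igfbp3, an insulin-like growth factor binding protein gene, was abundant in both libraries at 539 TPM in W1 and 892 TPM in W2 and lay within 2-fold, as did Ccn1. Basal, luminal and fibroblast marker sums were higher in W2 and endothelial sums in W1, and their part in these lists was not tested.

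**Figure D5:**
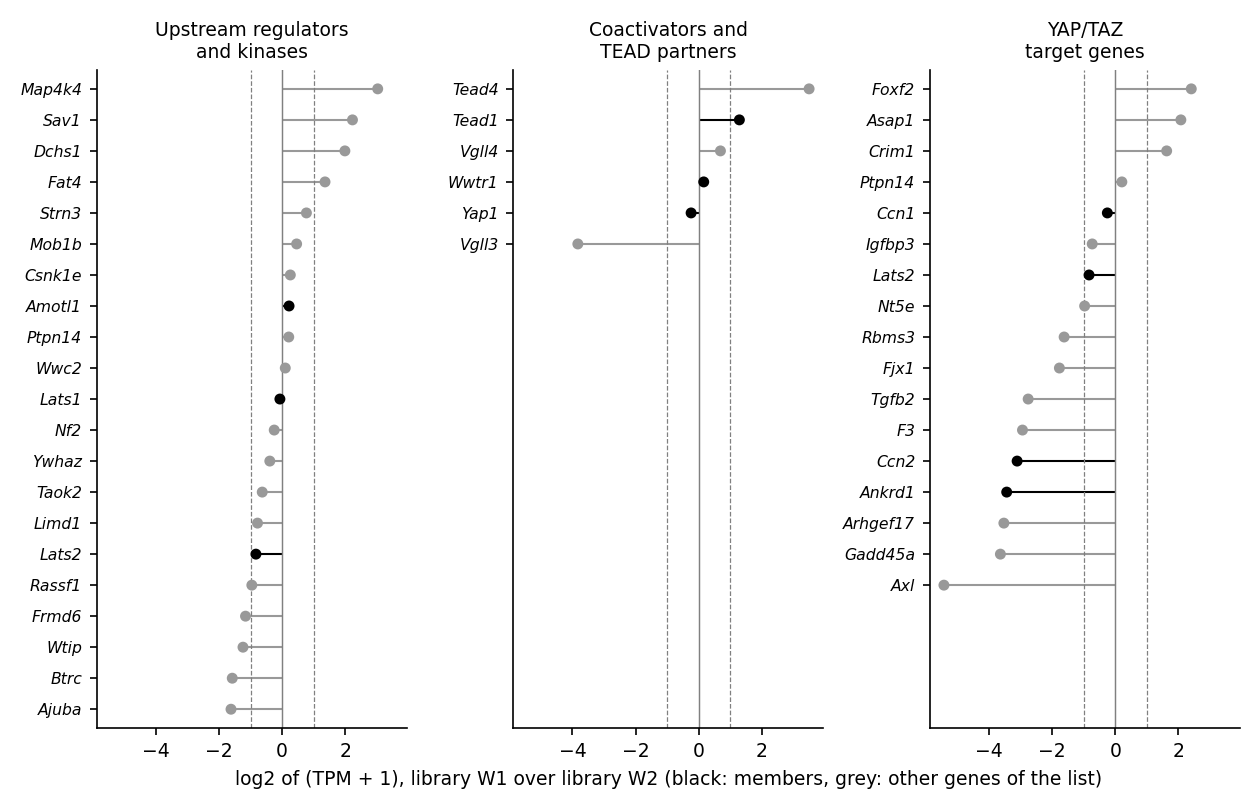
Log2 ratio of TPM + 1, W1 over W2, for the comparable genes of 3 lists that had 20 or more reads in at least 1 library, with the genes described in most detail in black, the others in grey and dashed lines at 2-fold. Regulators spread on both sides of 0 from Map4k4 at 3.03 to Ajuba at -1.62, and 9 of the 17 targets lie below the lower line, with Axl lowest at -5.43.

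The families of Ccn1, Ccn2 and Ankrd1 were also read. The CCN family encodes matricellular proteins of shared domain layout, and 5 of its 6 genes could be compared. Ccn3 had 245 reads, or 28.2 TPM, in W1 and 0 reads in W2, at least 82.2-fold higher in W1. Ccn4 had 4 reads, or 0.259 TPM, in W1 and 214 reads, or 13.8 TPM, in W2, 53.1-fold lower in W1 (20.5 to 197). Ccn5 had 0 reads in W1 and 45 reads, or 8.75 TPM, in W2, at least 14.9-fold lower in W1, and Ccn6 had 0 in both. With Ccn2, 3 CCN genes were lower in W1, 1 was higher, and Ccn1 lay within 2-fold, where over all genes 34.7% were higher and 32.9% lower. In the muscle ankyrin repeat family, Ankrd2 had 10 reads in W1 and 0 in W2, opposite to Ankrd1, and Ankrd23 had 0 in both.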

How the data were processed

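RNA was measured in 2 libraries, W1 and W2, which were left unassigned because their labels do not give a Pd-l1 class. The submitters' processing notes name Bowtie 0.12.2 and, with no role for either, the builds GRCm38 and mm8. The sources used here do not give the counting tool, the annotation or the strand setting. The authors deposited TPM values, which sum to 1000000 per library, and FPKM values, which are lower by a constant factor (TPM is FPKM times 1.00852 in W1 and 1.24567 in W2). There were 0 other value columns.

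Of 137767 transcript identifiers, 137654 matched GENCODE M21 on GRCm38, and values were summed per gene. FPKM times transcript length falls on multiples of 1 read, which gave 3055839 reads for W1 and 3800029 for W2. Within 0.1 read, 98.47% of transcripts above 0 came out whole in W1 and 98.06% in W2. These reads give exact Clopper-Pearson intervals at 95% and a floor of 3 reads for a library at 0. Folds given as at least a value use that floor and are not bounds of an interval. For Ankrd1 the exact lower bound was 14.3-fold, below the 18.2-fold from the floor. Intervals on a level are exact Poisson intervals, and those on ratios set within a library are exact conditional intervals of an odds ratio. All cover counting error only. Where reads fall on transcripts of different lengths, the ratio of TPM and the interval from reads can differ. A read on 1 kilobase is worth 0.330 TPM in W1 and 0.328 in W2.

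A gene was compared if it reached 1 TPM in either library. Its log2 of TPM + 1, W1 over W2, is smaller than the true ratio for low genes, and it was called at 2-fold. No test was made, as each title has 1 library. The calculation of reads, ratios and calls was tested on simulated data. Own sequence was counted as 50-base stretches on the sense strand. The members and lists were chosen with earlier results of these data known. Besides the members, genes were named when past 2-fold with at least 20 reads in the higher library, at most 4 per list and direction, or as family of a member; the genes given as examples within 2-fold, Tead2 and Tead3 were named after their values were seen. Some genes that this rule or a count includes are not reported here. Alternatives were other pseudocounts (0.1 and 5), FPKM, CPM, other totals, the main transcript alone and other filters. Promoter windows are from RefSeq; a planned comparison of proteins was not run. Python 3.11.15 was used, with matplotlib 3.10.9, pandas 2.3.3, scipy 1.17.1 and numpy 2.4.6.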

Additional observations from a re-analysis of the deposited data

How the results depend on the processing

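Under the alternatives, Ccn2 and Ankrd1 stayed past 2-fold lower in W1 in every setting tried. Tead1 dropped under 2-fold with a pseudocount of 5 (log2 ratio 0.67), and Lats2 passed it without mitochondrially encoded and ribosomal protein genes (-1.04). With a pseudocount of 5, 0 of the 10 genes were higher in W1, and 3 pathway genes were higher and 3 lower, against 7 and 6. In FPKM, 3 pathway genes were lower. The median log2 ratio of the members, -0.24, was 0.05 in FPKM and in CPM. The scalings without Gm23935 (0.16) and by the median ratio (0.06), chosen after seeing the data, moved it likewise, as a scaling shifts all genes together. Over the settings, 36.7% to 71.9% of all genes were past 2-fold. Adding Gm15270 to Ccn2, also chosen after seeing the data, gave -4.30. No paired analysis was possible because each title has 1 library and no group. Few reads limit Yap1, Wwtr1 and Tead1, with under 60 per library, and W1 on Ccn2, with 2. The coding transcripts of Yap1, with 0 to 54 own stretches, and of Tead1, with 0 to 399, had 0 reads. The part of depth and of own sequence in this was not tested. How reads shared by isoforms were counted was not tested. Amotl2 was not detected in either library.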
